A study of Ovis aries with 3 samples.

Results

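Of the 822 miRNA entries counted in 3 small RNA libraries of sheep intestine, 5 are miRNAs known from smooth muscle, striated muscle, and mesenchymal cells: oar-miR-143, oar-miR-133, oar-miR-199a-3p, novel_mir_235, and novel_mir_100. They were chosen by name. The first 3 are known sheep miRNAs, and novel_mir_235 and novel_mir_100 are predicted entries whose sequences are identical to bta-miR-206 and bta-miR-490, so they are called miR-206 and miR-490 here. The tissue was that of Small tailed Han sheep, with 1 library per segment: DU for the duodenum, CE for the cecum, and CO for the proximal colon. For every segment, RNA of 3 purebred ewes (11 months old, with no treatment named in the labels) was pooled before sequencing. Without replicates, no difference between libraries can be compared with the spread between animals, and every interval and p-value here covers counting error only. The labels give the tissue as mucosal epithelium of the intestine, and neither they nor the methods name a muscle layer.

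A miRNA is a short RNA that guides a silencing complex to messenger RNAs, mainly by base pairing of its seed, the bases 2 to 8 from its 5′ end. In mammals, miR-143 is made from the same primary transcript as miR-145 and is abundant in smooth muscle and in the connective tissue cells under the epithelium. miR-133 is made together with miR-1 and is a miRNA of heart, skeletal, and smooth muscle. miR-206 is a relative of miR-1 that is best known from skeletal muscle. miR-490 lies within the gene of a muscarinic acetylcholine receptor of smooth muscle and heart, and miR-199a-3p is made together with miR-214 in fibroblasts and other mesenchymal cells.

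The mature sequences of the 5 entries are given below because each miRNA is defined by its letters alone in the counts. They are written 5′ to 3′ in DNA letters, with the seed in capitals.
oar-miR-143: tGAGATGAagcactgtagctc
oar-miR-133: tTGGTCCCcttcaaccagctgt
oar-miR-199a-3p: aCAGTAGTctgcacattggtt
novel_mir_235 (miR-206): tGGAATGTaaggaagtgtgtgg
novel_mir_100 (miR-490): cAACCTGGaggactccatgctg
The 5 seeds all differ, and 0 of the other entries had the seed of any of them. Likewise, 0 other entries shared a run of at least 16 identical bases with any of the 5, the longest such run being 9 bases.

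Relatives of the members from the study's list of miRNAs show what each entry can and cannot separate, again with the seed in capitals.
bta-miR-133a: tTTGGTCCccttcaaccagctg
bta-miR-133b: tTTGGTCCccttcaaccagcta
bta-miR-1: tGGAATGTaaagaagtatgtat
The sequence of oar-miR-133 shares 21 bases with bta-miR-133a but starts 1 base later, so the seed read from the sheep entry (TGGTCCC) is shifted against that of the bovine miRNA (TTGGTCC). bta-miR-133b has a run of 20 bases in common with the same sheep entry, so whether reads of miR-133b were counted under oar-miR-133 was not tested. miR-206 and bta-miR-1 have the same seed, but their longest common run is 10 bases. The sequence of chi-miR-199b-3p is identical to oar-miR-199a-3p over all 21 bases, so its reads are those of miR-199a-3p and miR-199b-3p together. In the RefSeq gene table of sheep, MIR143 lies on chromosome 5 inside the long noncoding RNA LOC114114896, between the protein-coding genes IL17B and CSNK1A1. MIR199A lies on chromosome 12 within the span of the dynamin gene DNM3. MIR133 lies on chromosome 13 between SLCO4A1 and GATA5, and no gene with the name MIR206 or MIR490 was found in the table.

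Over all entries, 14462675 reads were counted for DU, 15072945 for CE, and 13769740 for CO. Levels are given as normalized reads, meaning reads per 1000000 reads that mapped to the genome. On this scale, 3 reads were 0.176 to 0.181 normalized reads. The smallest count above 0 was 1 read in known and 5 reads in predicted entries. miRNAs of the epithelium were present in every library, although miR-192 had 0 reads in CO, and 8 of the 9 on the epithelial list were analysed. Their orders differed. miR-200a had 6756, 5122, and 9655 normalized reads in DU, CE, and CO, while miR-215 had 55441, 435, and 4830.

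oar-miR-143 had more reads than any other entry in all 3 libraries. It was counted 4606500 times in DU, 7297109 times in CE, and 6614344 times in CO, or 275281, 429102, and 399239 normalized reads. Of all counted reads, these were 31.9% in DU (Wilson 95% interval 31.83 to 31.88%), 48.4% in CE (48.39 to 48.44%), and 48.0% in CO (48.01 to 48.06%). The level was therefore lower in the DU library than in the CE and CO libraries, which lay close to each other. In such bulk samples, fewer cells of a type and less RNA per cell cannot be told apart. Each value is also a share of a library, so it depends on the reads of other RNAs. miR-192 had 967314 reads in DU, 490567 in CE, and 0 in CO, and its part in these shares was not tested. For miR-143, the CE library had 1.56 times the level of the DU library (exact 95% interval 1.557 to 1.561), and the CO library 1.45 times (1.449 to 1.452). The CE library had 1.07 times the miR-143 level of the CO library (1.074 to 1.076).

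oar-miR-133, which acts on serum response factor and other regulators of muscle cells, was far rarer. It had 3946, 9086, and 4867 reads in DU, CE, and CO, or 236, 534, and 294 normalized reads. The CE library stood above both others. Its level was 2.27 times that of the DU library (exact 95% interval 2.18 to 2.35) and 1.82 times that of the CO library (1.76 to 1.88). Between the CO and DU libraries, the ratio was 1.25 (1.19 to 1.30).

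oar-miR-199a-3p had 55210, 47937, and 30521 reads in DU, CE, and CO, which were 3299, 2819, and 1842 normalized reads. Its order was the opposite of that of miR-143 at the duodenal end, with the highest level in the DU library and the lowest in the CO library, except that CE passed DU when miR-143 was left out of the library size (log2 ratio 0.14). The CO library had 0.558 times the level of the DU library (exact 95% interval 0.551 to 0.566), and the CE library 0.854 times (0.844 to 0.865). The step between the libraries of the large intestine was the larger one, with 1.53 times more in the CE library than in the CO library (1.51 to 1.55).

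miR-206 was the rarest of the 5. It was counted 728 times in DU, 511 times in CE, and 298 times in CO, or 43.5, 30.0, and 17.99 normalized reads. These values descended in the same order as those of miR-199a-3p. The DU library had 2.42 times the level of the CO library, that is, a log2 ratio of CO to DU of -1.27 (exact 95% interval -1.47 to -1.08). The log2 ratio of CE to DU was -0.53 (-0.70 to -0.37), and that of CE to CO 0.74 (0.53 to 0.95).

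miR-490 had an order of its own among the 5, with the lowest level in the CE library. It was counted 1993, 1196, and 1643 times in DU, CE, and CO, or 119, 70.3, and 99.2 normalized reads. The log2 ratio of CE to DU was -0.76 (exact 95% interval -0.86 to -0.66), that of CE to CO was -0.50 (-0.60 to -0.39), and that of CO to DU was -0.26 (-0.36 to -0.17), which turned to 0.18 when miR-143 was left out of the library size. It was the only one of the 5 with fewer normalized reads in the CE library than in the CO library.

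**Figure D1:**
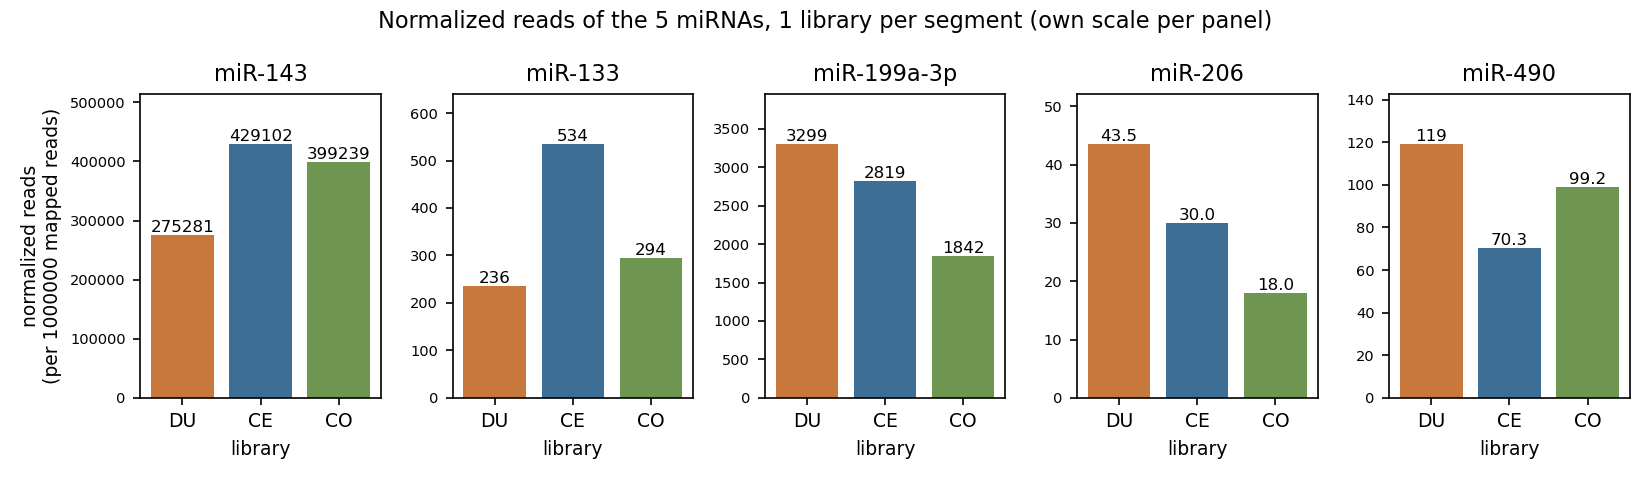
Normalized reads (per 1000000 reads mapped to the genome) of the 5 miRNAs in DU, CE, and CO, with 1 bar per library, no replicates, and a separate vertical scale from 0 in each panel. miR-143 and miR-133 were highest in the CE library, while miR-199a-3p, miR-206, and miR-490 were highest in the DU library, which for miR-199a-3p against CE and for miR-490 against CO turned when miR-143 was left out of the library size (log2 ratios of 0.14 and 0.18).

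The exact Audic-Claverie test was run on each pair of libraries, over all entries that reached 1 normalized read in at least 1 of the pair. Calls needed a p-value below 0.01 after Bonferroni correction together with a fold change of 2 or more. The test asks whether the reads of 2 libraries differ beyond counting error, so it compares these libraries and not the segments of sheep in general. Between the CE and DU libraries, 1 of the 5 members was called, miR-133, which was higher in the CE library. The background was 36.5% of 348 tested entries called in either direction, with 12.1% higher in the CE library and 24.4% higher in the DU library. Between the CO and DU libraries, 1 of the 5 was called, miR-206, which was lower in the CO library (exact Audic-Claverie test, corrected p = 8.69e-39). Here 33.9% of 363 tested entries were called, with 20.1% higher in the DU library and 13.8% higher in the CO library. Between the CE and CO libraries, 0 of the 5 were called, against 22.7% of 326 tested entries (9.82% higher in the CE library and 12.9% higher in the CO library).

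Most entries called in the background had 0 reads in 1 of the libraries, which none of the members did. These were 74 of 127 entries between the CE and DU libraries, 86 of 123 between the CO and DU libraries, and 59 of 74 between the CE and CO libraries. Where both libraries had 10 reads or more, 17.5%, 12.6%, and 5.4% of the entries were called in the same order. For the members, the fold change decided the calls and not the test, since the largest corrected p-value of their 15 comparisons was 1.33e-05 (exact Audic-Claverie test). The widest of their exact 95% intervals spanned 0.42 on the log2 scale. When edgeR's exact test was given a biological coefficient of variation of 0.4, an assumed value, neither miR-133 nor miR-206 was called.

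The direction of the differences was divided among the members. From the DU to the CE library, miR-143 and miR-133 were higher and the other 3 were lower (miR-199a-3p not without miR-143 in the library size), with a median log2 ratio of -0.23. Over the 165 entries with at least 100 reads in each library, the median was -0.10 (quartiles -0.55 and 0.52). From the DU to the CO library, miR-143 and miR-133 were again higher and 3 lower (miR-490 not without miR-143 in the library size), with a median of -0.26 against -0.09 for the 165 entries (quartiles -0.51 and 0.42). Between the CE and CO libraries, 4 of the 5 were higher in the CE library, with a median of 0.61 against 0.02 (quartiles -0.22 and 0.22). In that last comparison, 4 of the 165 entries had a higher log2 ratio than miR-133, 8 had a higher one than miR-206, and 13 had a higher one than miR-199a-3p. For miR-143 and miR-490, 65 and 147 of the 165 entries had a higher log2 ratio. These 3 comparisons share libraries and are not independent of each other.

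miR-143 alone took up to 48.4% of the counted reads. When the library size was set to the counted reads without miR-143, the median log2 ratio of the 165 entries moved by 0.37 between the CE and DU libraries and by 0.45 between the CO and DU libraries. Under this setting, the calls of all entries also turned, with 74 higher in CE and 59 in DU (42 and 85 by mapped reads) and 89 higher in CO and 62 in DU (50 and 73 by mapped reads). miR-143 itself was then called between the CE and DU libraries with a log2 ratio of 1.01. With all counted reads as the library size, that ratio was 0.60. These settings differ only by the reads of miR-143, so the rise follows from leaving its own reads out of the library size. The log2 ratio of miR-199a-3p from DU to CE turned from -0.23 to 0.14, and that of miR-490 from DU to CO from -0.26 to 0.18. miR-206 kept its direction from DU to CO but was no longer called, with a log2 ratio of -0.83. The other 13 of the 15 log2 ratios kept their sign under all 5 other library sizes tried. For miR-133, the log2 ratio of CE to DU ranged from 1.14 to 1.55 over these settings.

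**Figure D2:**
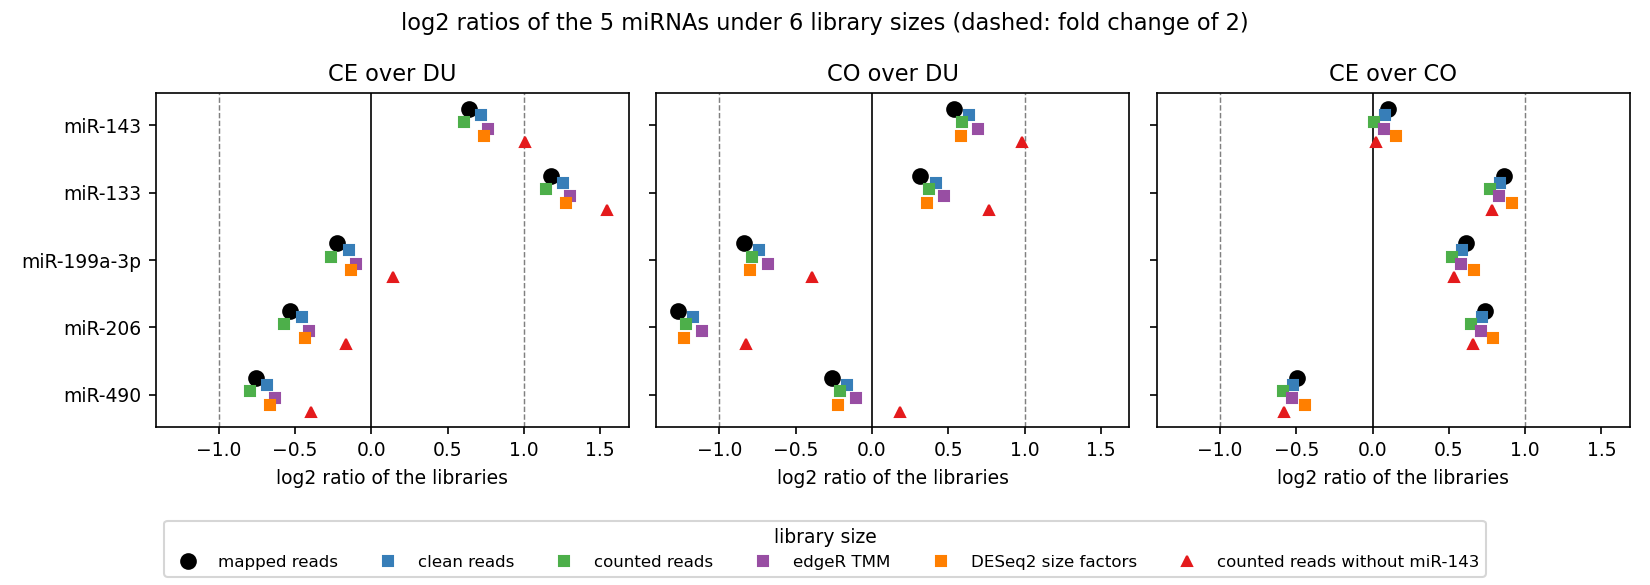
log2 ratios of the 5 miRNAs between the CE and DU, CO and DU, and CE and CO libraries under 6 library sizes, with 1 symbol per library size and dashed lines at a fold change of 2. The triangles, for which miR-143 was left out of the library size, lie on the other side of 0 for miR-199a-3p from DU to CE (0.14) and for miR-490 from DU to CO (0.18).

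Ratios of reads between miRNAs of the same library do not depend on the library size. miRNAs differ in how well they are ligated and sequenced, so only the change of a ratio between libraries is compared here, not its level. The DU library had 83.4 reads of miR-143 for each read of miR-199a-3p (exact 95% interval 82.7 to 84.1). There were 152 in CE (151 to 154) and 217 in CO (214 to 219). This ratio of 2 mesenchymal miRNAs thus differed 2.60-fold between the libraries, in the order of DU, CE, and CO.

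The ratios between the muscle miRNAs also differed. For each read of miR-206, there were 5.42 reads of miR-133 in DU (5.01 to 5.87), 17.8 in CE (16.3 to 19.5), and 16.3 in CO (14.5 to 18.4). The CE and CO libraries were alike within counting error, while the DU library stood below both. The ratio of miR-133 to miR-490 separated the CE library instead, with 1.98 (1.88 to 2.09), 7.60 (7.15 to 8.08), and 2.96 (2.80 to 3.13) in DU, CE, and CO. The ratio of miR-490 to miR-206 separated the CO library, with 2.74 (2.51 to 2.98), 2.34 (2.11 to 2.60), and 5.51 (4.87 to 6.26). The steadiest pair was miR-199a-3p and miR-206. Their ratio was 75.8 in DU (70.5 to 81.7), 93.8 in CE (86.0 to 103), and 102 in CO (91.4 to 115), a range of 1.35-fold. Over all pairs of the 5, the ratio of miR-133 to miR-490 differed most between libraries, by 3.84-fold.

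**Figure D3:**
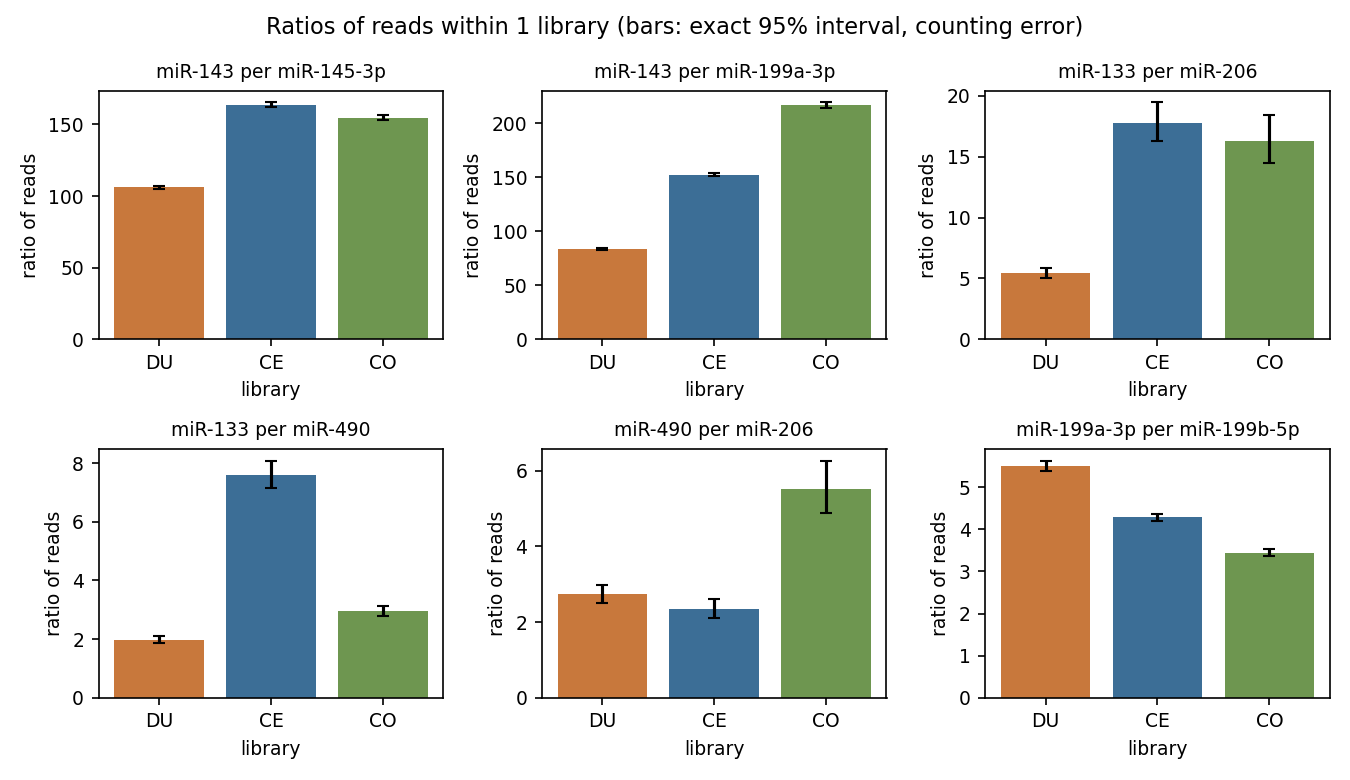
Ratios of reads between pairs of miRNAs within DU, CE, and CO, with bars for the ratio and error bars for its exact 95% interval, which covers counting error only. The ratio of miR-133 to miR-206 was lowest in the DU library, that of miR-133 to miR-490 was highest in the CE library, and that of miR-490 to miR-206 was highest in the CO library.

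Partners of the members were compared with them next. The passenger arm of the neighbor of miR-143, miR-145-3p (novel_mir_112), differed little between the libraries. It was counted 43363, 44545, and 42737 times in DU, CE, and CO, or 2591, 2619, and 2580 normalized reads. The log2 ratio of CE to DU was 0.02 (exact 95% interval -0.004 to 0.035), and that of CO to DU was -0.01 (-0.03 to 0.01). Their direction depended on the library size, with values from -0.02 to 0.38 and from -0.01 to 0.44 over the 6 library sizes. The number of miR-143 reads per read of miR-145-3p was 106 in DU (105 to 107), 164 in CE (162 to 165), and 155 in CO (153 to 156). The miR-145-5p arm was not analysed here.

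miR-199b-5p (novel_mir_73), from a hairpin whose other arm has the same sequence as miR-199a-3p, had 10032, 11199, and 8881 reads, or 600, 659, and 536 normalized reads in DU, CE, and CO. It was highest in the CE library, but its ratio of CO to DU turned to 0.29 when miR-143 was left out of the library size. Its log2 ratio of CE to DU was 0.14 (0.10 to 0.17), that of CO to DU was -0.16 (-0.20 to -0.12), and that of CE to CO was 0.30 (0.26 to 0.34). The reads of miR-199a-3p per read of miR-199b-5p were 5.50 in DU (5.39 to 5.62), 4.28 in CE (4.19 to 4.37), and 3.44 in CO (3.36 to 3.52). miR-199a-3p can come from several hairpins, so this is not a ratio of both arms of a single one.

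The study's predictions spread 2 other mesenchymal miRNAs over entries that differ by a few end bases. Their sequences are given with the shared part in capitals, since the entries differ only at the ends.
novel_mir_645 (miR-140): tACCACAGGGTAGAACCACGGa
novel_mir_186 (miR-140): tACCACAGGGTAGAACCACGG
novel_mir_360 (miR-140): ACCACAGGGTAGAACCACGGac
novel_mir_177 (miR-214): tACAGCAGGCACAGACAGG
novel_mir_355 (miR-214): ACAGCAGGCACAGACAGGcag
novel_mir_645 had 13129 reads in the DU library and 0 in both others, while novel_mir_186 had 0 reads in the DU library and 11510 and 8924 in the CE and CO libraries. novel_mir_360 had 0 reads in all 3. For miR-214, novel_mir_177 was counted 373 times in DU, 0 times in CE, and 455 times in CO, and novel_mir_355 was counted 456 times in CE and 0 times in the others. In each library, 1 entry of each miRNA had reads and the others had 0.

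With the entries added up, miR-140, a miRNA of cartilage and other connective tissue, had 785, 677, and 539 normalized reads in DU, CE, and CO. The log2 ratio of CO to DU was -0.54 (-0.58 to -0.50) and that of CE to DU was -0.21 (-0.25 to -0.18). miR-140 thus had the order of miR-199a-3p and miR-206, with the highest level in the DU library and the lowest in the CO library, and, as for miR-199a-3p, CE passed DU when miR-143 was left out of the library size (log2 ratio 0.15). miR-214, the partner of miR-199a, had 22.3, 26.8, and 27.5 normalized reads. Its log2 ratio of CE to DU was 0.27 (0.07 to 0.47), that of CO to DU was 0.30 (0.10 to 0.50), and that of CE to CO was -0.03 (-0.23 to 0.16).

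**Figure D4:**
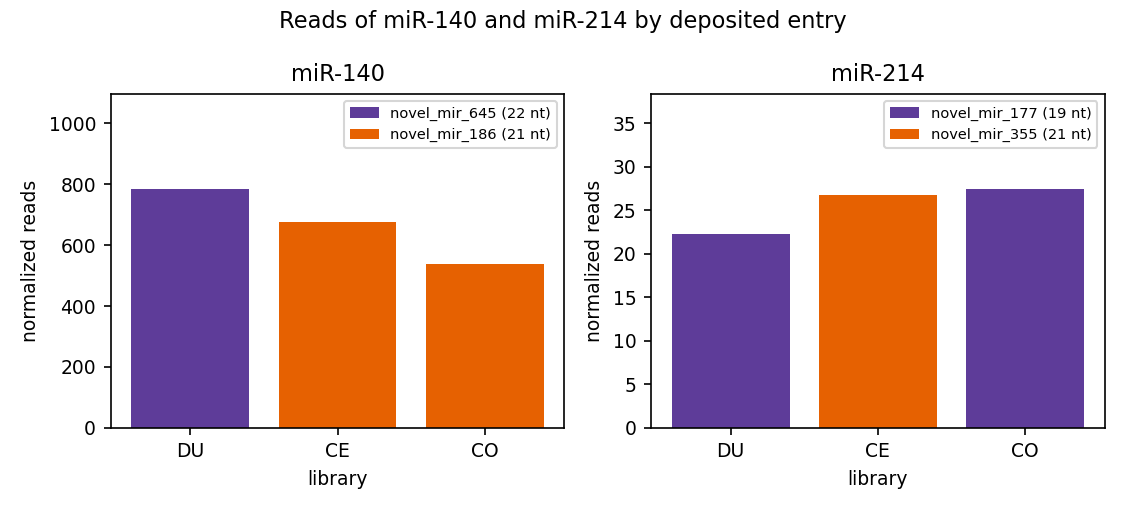
Normalized reads of miR-140 and miR-214 in DU, CE, and CO, with bars colored by the deposited entry that held the reads. Each library had reads in only 1 entry of each miRNA, and the summed level was 785, 677, and 539 for miR-140 and 22.3, 26.8, and 27.5 for miR-214.

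Of the muscle list, 2 further miRNAs were counted. miR-499 (novel_mir_182), which lies in a myosin heavy chain gene, had 603, 406, and 597 reads, or 36.0, 23.9, and 36.0 normalized reads in DU, CE, and CO. Like miR-490, it was lowest in the CE library, with a log2 ratio of CE to DU of -0.59 (exact 95% interval -0.78 to -0.41). miR-486 (novel_mir_267), a miRNA of muscle and of red blood cells, had 40.0, 38.8, and 28.7 normalized reads. Its log2 ratio of CE to DU was -0.04 (-0.20 to 0.11), with either sign depending on the library size. That of CO to DU was -0.48 (-0.65 to -0.31), but -0.03 when miR-143 was left out of the library size.

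In all, 11 of the 14 miRNAs on the muscle and mesenchymal lists were counted, the 5 members and 6 others, and miR-1, miR-133b, and miR-208 were not analysed here. From DU to CE, 5 of the 11 were higher and 6 lower, and 1 passed a fold change of 2. From DU to CO, 3 were higher and 8 lower, and 1 passed a fold change of 2. Between the CE and CO libraries, 8 were higher in CE and 3 in CO, and 0 passed a fold change of 2. The median log2 ratios were -0.04, -0.16, and 0.30 in the same order. These counts followed the library size: without miR-143 in it, 8 of the 11 were higher in CE than in DU, 7 were higher in CO than in DU, and 7 were higher in CE than in CO. By mapped reads, 75 of the 165 entries with at least 100 reads in each library were higher in CE than in DU. Of the same 165 entries, 72 were higher in CO than in DU and 86 in CE than in CO.

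Markers of other cells moved between the same libraries, and their part in the values above was not tested. All 3 leukocyte miRNAs that were analysed (miR-142-5p, miR-150, and miR-155) had their highest level in the DU library, under all 6 library sizes tried. Their sum was 2781 normalized reads in DU, 1058 in CE, and 1123 in CO. For miR-155, the log2 ratio of CO to DU was -0.45. Leaving miR-143 out of the library size moved the ratios of CO to DU by 0.45, so miR-155 was then almost equal in CO and DU. All 8 epithelial miRNAs were lower in the CE than in the DU library, with a median log2 ratio of -0.45. This held for 7 of the 8 with the TMM library size of edgeR, and for 5 of the 8 when miR-143 was left out of the library size. By contrast, 5 of 7 (miR-200a, miR-200b, miR-200c, miR-141, and miR-429) were higher in the CO than in the DU library. The other 2, miR-194 and miR-215, were lower in CO, with log2 ratios of CO to DU of -1.43 and -3.52. Between CE and CO, where 4 of the 5 members were higher in CE, all 7 epithelial miRNAs with reads in both were lower in CE under all 6 library sizes, with a median log2 ratio of -0.65. The epithelial sum was 160148, 58411, and 50461 normalized reads, but the entry of miR-192 had 0 reads in the CO library, so that the last of these sums lacks it. In DU, the largest parts of the sum were miR-192 (57806), miR-215 (55441), and miR-194 (17964), so the sum does not follow the list as a whole. The entry of miR-451, a miRNA of red blood cells, had 0 reads in all 3 libraries, and that of miR-144 had 27, 0, and 0. Of the neuronal miRNAs, miR-124 had 2.211, 2.176, and 2.173 normalized reads, and miR-9 was not analysed here, nor was miR-126 of the endothelium.

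For each member, the 3 entries with the most similar pair of log2 ratios to the DU library were sought among those with at least 100 reads in each library. The distance is that between the pairs of log2 ratios (CE to DU and CO to DU), over 3 libraries and with the DU library shared by both ratios. Nearest to miR-143 were miR-27b (distance 0.07), miR-99b (0.08), and miR-181d (0.09). Nearest to miR-490 were miR-148b (0.07), an entry overlapping miR-505 (0.08), and let-7d (0.13). Nearest to miR-133 were miR-487b-3p (0.15), miR-382-3p (0.21), and miR-23a (0.40), and nearest to miR-199a-3p was miR-221 (0.16), followed by entries nested with bta-miR-2387 (0.19) and bta-miR-1839 (0.30). miR-206 had no close match, the nearest being an entry nested with miR-146b (0.38), bta-miR-6119-5p (0.43), and let-7i (0.45). Among the members themselves, miR-199a-3p and miR-206 were closest (0.53), followed by miR-143 and miR-133 (0.58), and miR-133 and miR-206 were farthest apart (2.34).

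**Figure D5:**
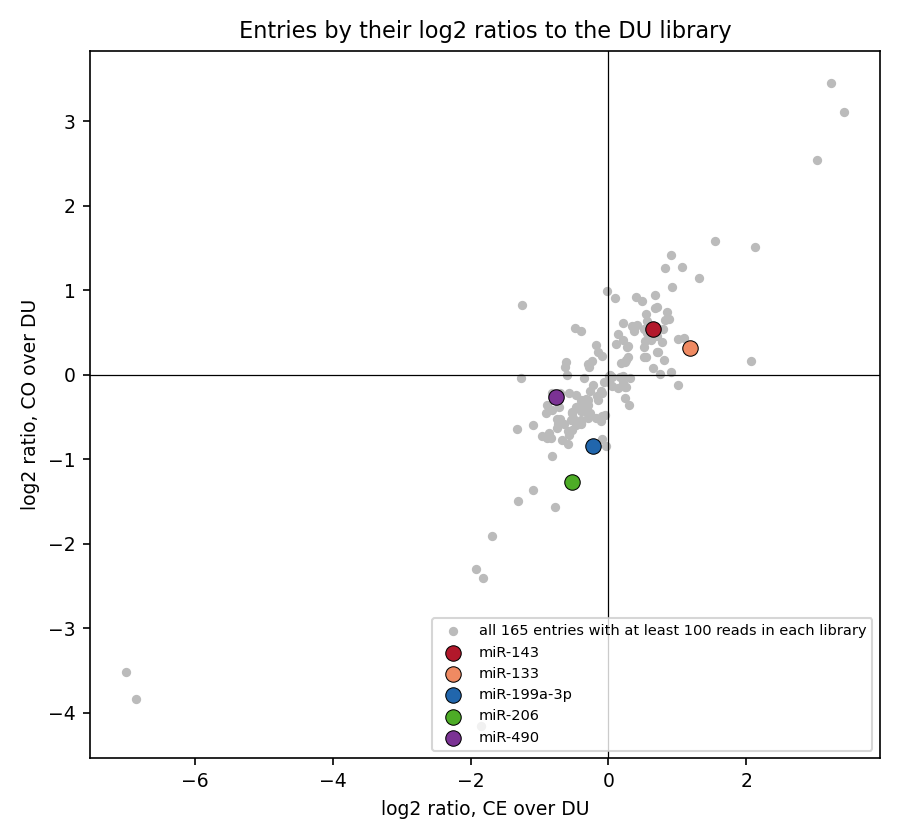
log2 ratio of CE to DU (horizontal) and of CO to DU (vertical) for the 165 entries with at least 100 reads in each library (gray) and the 5 miRNAs (colored), normalized to mapped reads, with the DU library shared by both axes. miR-143 and miR-133 lie above 0 on both axes and the other 3 below 0 on both, although without miR-143 in the library size miR-199a-3p (0.14 from DU to CE) and miR-490 (0.18 from DU to CO) cross 0 on 1 axis.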

How the data were processed

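Small RNA was sequenced in 3 libraries (DU, CE, and CO), each made from the RNA of 3 ewes pooled before the library was prepared. The authors removed low-quality and adapter reads and reads shorter than 18 nt, mapped the clean reads to Oar_v4.0 with SOAP, used BLAST and miRBase 21 for the known miRNAs, and obtained the predicted ones from miReap. The submitters' processing notes also name Bowtie. The deposited values are counts of reads, not normalized, for 822 entries, of which 146 are known and 676 predicted. The smallest count above 0 was 1 read in known and 5 reads in predicted entries.

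Counts were divided by the reads mapped to the genome, per 1000000. The main library size was thus that of all mapped reads, and 5 other library sizes were tried, with TMM factors of edgeR 4.0.16 and size factors of DESeq2 1.42.0 among them. Pairs of libraries were compared over entries reaching 1 normalized read in at least 1 of them, with the Audic-Claverie test (2 times the smaller tail, Bonferroni correction, fold change of at least 2). The formula and the thresholds follow the methods of the study, which do not state the doubling of the tail and divide by clean reads. With clean reads as the library size, 96 (CE and DU), 101 (CO and DU), and 67 (CE and CO) entries were called, against 127, 123, and 74 with mapped reads. A normalized value of 0 was replaced by 0.01. The implementation was tested on simulated data. The quasi-likelihood test of edgeR could not be fitted with 1 library per segment. Intervals of ratios come from the binomial split of the reads (exact, 95%) and shares have Wilson 95% intervals. Without molecular identifiers, these cover counting error only.

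Predicted entries were named by an identical mature sequence in the study's list of miRNAs, or else by one that contained or overlapped theirs. For the lists of cell type miRNAs, entries aligned to each other without mismatch over at least 16 bases were added up, which was decided after seeing the data. The members and lists were chosen with earlier results of these data known. The miRNAs named were the members, their relatives and partners, the other miRNAs of the muscle and mesenchymal lists, the 3 entries nearest in pattern to each member, and markers of other cell types. The RefSeq gene table of sheep (ARS-UI_Ramb_v3.0) is of another build and was used only for gene names and neighbors.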

Additional observations from a re-analysis of the deposited data

How the results depend on the processing

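Of the 135 values of the 5 miRNAs under 9 alternative settings, 129 kept their direction and their side of the threshold. Only the 5 alternative library sizes changed the log2 ratios, and 71 of their 75 values kept both. The other settings left every log2 ratio as it was, so no direction could turn there. Leaving oar-miR-143 out of the library size reversed the log2 ratio of oar-miR-199a-3p from DU to CE (0.14) and that of miR-490 from DU to CO (0.18), brought oar-miR-143 from DU to CE past a fold change of 2 (1.01), and put miR-206 from DU to CO below it (-0.83). When edgeR's exact test was given a biological coefficient of variation of 0.4, an assumed value, the log2 ratios of oar-miR-133 from DU to CE (1.18) and of miR-206 from DU to CO (-1.27) were no longer called. Adding up entries of nested sequence moved none of the 5, since none has such an entry.

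The number of entries called was 127, 123, and 74 (CE and DU, CO and DU, CE and CO). It was 48, 35, and 15 with at least 10 reads in both libraries, 53, 37, and 15 without entries with 0 reads in either library (chosen after seeing the data), and 38, 40, and 31 under that assumed variation. Taken as single entries, miR-140 gave a ratio only between CE and CO and miR-214 only between CO and DU, both the same as with the entries added up, since the other entries had 0 reads there. No paired analysis was possible because each segment had 1 library. With 298 to 728 reads, miR-206 had the widest intervals of the 5, and the lack of replicate libraries applies to all of them.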
